A study of Mus musculus with 3 samples.

Results

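The genes described here are 9 of the 34289 features counted in each library, chosen by name because their products make, break down or sense eicosanoids: Hpgd, Ptgs1, Ptgs2, Ptges, Ptger4, Ltc4s, Alox5, Alox5ap and Lta4h. They were chosen with earlier results of these data known. Their levels were read in Langerhans cells, antigen-presenting cells that reside in the epidermis, and in neutrophils, macrophages and keratinocytes from the same ears. The cells came from male mice of the outbred Cd1 strain and were profiled with a droplet-based 3' RNA assay, with 1 library per group. The untreated group received only the hair-removing cream Nair, the second group a mixture of acetone, croton oil (an irritant plant oil) and olive oil, and the third repeated punches with a microneedle array. Ears were taken 48 hours after treatment began. The epidermis was lifted off with trypsin, dead cells were removed and Langerhans cells were enriched on magnetic beads, so that every library had passed through the same steps. The number and age of the animals behind a library are not given in the sources used here. With 1 library per group no difference between treatments could be tested, and the 95% intervals below cover counting error only.

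Eicosanoids are short-lived lipid signals made from arachidonic acid. Cyclooxygenases turn it into prostaglandin H, from which dedicated synthases make prostaglandin E and its relatives, and 5-lipoxygenase with its partner proteins turns it into leukotrienes. Prostaglandins are inactivated mainly by 15-hydroxyprostaglandin dehydrogenase, so their amount in a tissue depends on synthesis and on breakdown. In skin, keratinocytes and infiltrating leukocytes are known sources of these lipids, and prostaglandin E acting on the Ptger4 receptor is known to affect the migration of Langerhans cells.

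The libraries held 6945 to 9876 cell barcodes and 117178809 to 127666928 unique molecular identifiers (UMIs), each UMI standing for 1 captured RNA molecule. After filters on quality and doublets, 6479 to 9054 cells were kept. A cell was counted as a Langerhans cell when Cd74, H2-Aa, H2-Ab1 and H2-Eb1 together made up at least 2% of its UMIs and it had at least 2 Epcam UMIs. This gate held 8651 untreated, 5922 croton oil and 5295 microneedle cells, with a median of 11527, 12577 and 17342 UMIs per cell, and each of the 10 Langerhans cell markers listed, Cd207 among them, lay at 20 CPM or more (CPM, a gene's UMIs per 1000000 UMIs) in each library. The other classes were clusters named from markers and are called neutrophil-like (212 croton oil and 394 microneedle cells), macrophage-like (384 microneedle cells) and keratinocyte-like (240 untreated, 219 croton oil and 97 microneedle cells). The untreated library held 1 neutrophil-like and 3 macrophage-like cells and the croton oil library 6 macrophage-like cells, and these were not compared. Pairs of libraries shared 13 to 32 barcodes, and no barcode occurred in all 3. Levels are UMIs summed over the cells of a class and library, as CPM of the same sum. A log2 difference is that of CPM + 5, and a fold is the plain ratio of CPM. The assay counts transcript ends, so a level does not grow with transcript length, but genes may be captured with unlike efficiency.

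The promoters of Hpgd and Ptgs2 are shown because these genes had the largest differences between treated and untreated Langerhans cells among the 9, in opposite directions. Each line gives, from the RefSeq promoter table on GRCm39, the 250 bases before and 50 bases after the listed transcription start, 5′ to 3′ on the gene's strand, with searched motifs in capitals. Hpgd spans chr8:56747543-56774082 and its promoter chr8:56747337-56747636, both on the plus strand. Ptgs2 spans chr1:149975194-149983978 and its promoter chr1:149975532-149975831, also on the plus strand.
Hpgd promoter: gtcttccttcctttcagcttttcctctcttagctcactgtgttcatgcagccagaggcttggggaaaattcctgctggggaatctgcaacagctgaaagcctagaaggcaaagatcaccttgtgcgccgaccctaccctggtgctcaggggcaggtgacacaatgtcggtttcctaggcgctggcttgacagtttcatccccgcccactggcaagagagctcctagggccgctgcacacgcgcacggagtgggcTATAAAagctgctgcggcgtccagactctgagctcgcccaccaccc
Ptgs2 promoter: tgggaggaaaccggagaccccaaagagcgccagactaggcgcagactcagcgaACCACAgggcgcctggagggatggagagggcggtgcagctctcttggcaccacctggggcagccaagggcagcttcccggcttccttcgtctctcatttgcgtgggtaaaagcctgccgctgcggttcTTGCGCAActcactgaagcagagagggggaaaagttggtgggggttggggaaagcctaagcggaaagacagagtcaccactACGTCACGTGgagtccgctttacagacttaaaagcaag
The capitals in the Hpgd promoter mark TATAAA, which 13.6% of the 32851 promoters in the table hold on either strand. Those in the Ptgs2 promoter mark, in order, the RUNX letters TGTGGT on the other strand (16.8% of promoters), the C/EBP palindrome TTGCGCAA (0.183%), and a run in which the CRE letters TGACGT on the other strand (7.51%) overlap the E-box CACGTG (7.15%). TTGCGCAA begins 69 bases before the start that RefSeq lists, while TATAAA in Hpgd and the overlapping run in Ptgs2 begin after it. GENCODE places the start of Ptgs2 before the whole window shown, and that of Hpgd within its window but before TATAAA. Each motif marked in either window thus lies downstream of the GENCODE start of its gene. The NF-kB motif searched (in 0.411% of promoters), the AP-1 letters TGANTCA (7.81%) and the ETS letters AGGAAGT (9.35%) occurred in neither window. Promoters of 8 of the 9 genes were in the table, and AGGAAGT occurred in those of Ptgs1 and Ltc4s. A match describes letters in the window and does not show binding.

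In Langerhans cells of both treated libraries the breakdown enzyme Hpgd was far lower than in the untreated library, the receptor Ptger4 was lower, and Ptgs2 was higher from a low level. Ptgs1 and the leukotriene genes Alox5, Alox5ap and Ltc4s differed by less than 2-fold from the untreated library in both treatments. Genes were compared where either library reached 20 CPM, and counted as different at a log2 difference of at least 1 in size. With croton oil 3 of the 7 members compared passed this fold, where 11% of all 6837 genes compared did: Ptgs2 was higher (5.5% of all genes were) and Hpgd and Ptger4 were lower (5.53% were). With microneedle punches 2 of 6 passed, Hpgd and Ptger4, both lower, where 5.64% of all 6703 genes passed, 3.88% higher and 1.76% lower. Between croton oil and microneedle 0 of 7 passed, where 2.67% of all 6633 genes did (1.63% higher and 1.04% lower). The median log2 difference over all genes compared was -0.03 for croton oil and 0.03 for microneedle against untreated. Both comparisons use the same untreated library. Because the members were chosen with earlier results of these data known, their counts beside the shares of all genes are descriptions and not tests.

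**Figure D1:**
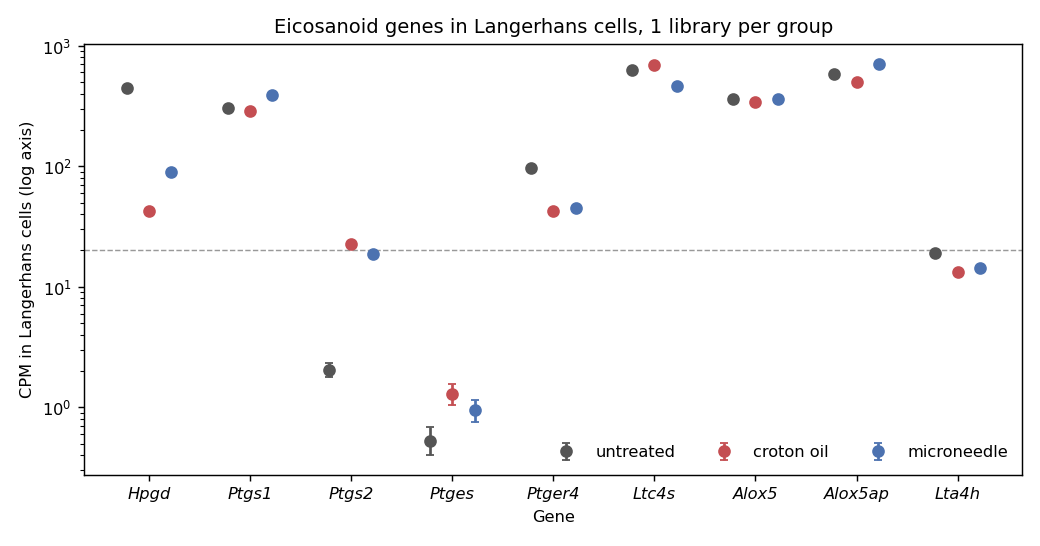
Level of each of the 9 genes in gated Langerhans cells (CPM, log axis) in the untreated, croton oil and microneedle libraries, with 1 point per library and bars for the 95% Poisson interval, which is smaller than the point for most genes. The dashed line marks 20 CPM, the minimum for a comparison, and Hpgd and Ptgs2 stand apart from the other genes in the distance between the untreated and the treated points.

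Hpgd (ENSMUSG00000031613) encodes 15-hydroxyprostaglandin dehydrogenase, which oxidises prostaglandins to inactive forms. In Langerhans cells its level was 447 CPM untreated (interval 443 to 451), 42.6 with croton oil (41.2 to 44.0) and 89.9 with microneedle punches (88.0 to 91.8). The untreated library was the highest and the croton oil library the lowest, and the 3 counting intervals were far apart. Croton oil was 10.5-fold below untreated, a log2 difference of -3.25 (-3.30 to -3.19), and microneedle 4.97-fold below, -2.25 (-2.29 to -2.21). Between the treatments the log2 difference was -0.996, just short of the 2-fold mark, and it passed that mark in 7 of 19 alternative analyses.

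The lower Hpgd level was seen in the number of cells with a UMI and in the number of UMIs per cell. After each cell was thinned to 3000 UMIs, 64.5% of 8549 untreated Langerhans cells had at least 1 Hpgd UMI (exact binomial interval 63.5% to 65.5%), against 9.64% of 5890 croton oil cells (8.90% to 10.4%) and 19.8% of 5236 microneedle cells (18.8% to 20.9%). Thinning left out 102, 32 and 59 shallower cells. Without thinning, the shares were 93.1%, 23.9% and 53.0%. Cells with 3 or more Hpgd UMIs made up 17.3%, 0.730% and 1.66% of the thinned cells, and the mean was 1.39, 0.136 and 0.291 UMIs per cell. Among neutrophil-like cells, 0 of 109 thinned croton oil cells and 0 of 248 microneedle cells had a Hpgd UMI. These counts allow shares of up to 2.75% and 1.21%. They describe the class and are no independent measure of free Hpgd RNA, and the untreated library held only 1 neutrophil-like cell. Before thinning, the croton oil and microneedle neutrophil-like cells had a median of 4158 and 3973 UMIs, and the Langerhans cells of the same libraries 12608 and 17425.

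**Figure D2:**
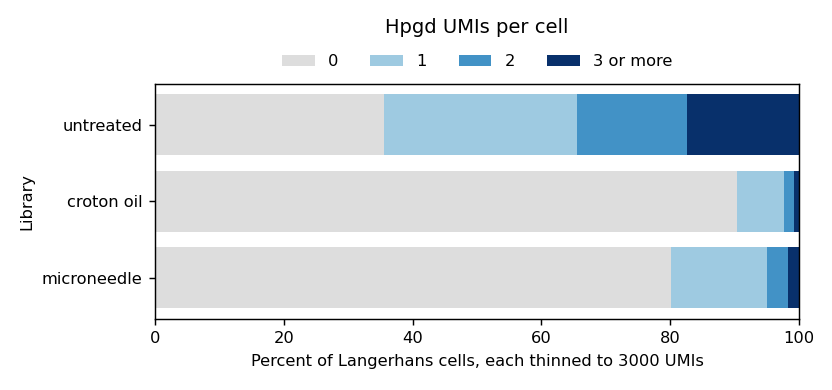
Share of gated Langerhans cells (percent) with 0, 1, 2 or at least 3 Hpgd UMIs in each library after every cell was thinned to 3000 UMIs. Cells without a Hpgd UMI made up 35.5% of untreated, 90.4% of croton oil and 80.2% of microneedle cells.

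The share of Langerhans cells with a Hpgd UMI was also read in cells with and without a UMI of another member. In the thinned untreated cells, 63.6% of those with Ptgs1 and 65.8% of those without it had Hpgd. In the croton oil cells the same shares were 9.87% and 9.40%, and in the microneedle cells 19.7% and 20.1%. For Ptgs2 they were 53.3% of 45 cells with it and 64.6% without it untreated, 7.45% of 255 and 9.74% with croton oil, and 14.0% of 164 and 20.01% with microneedle. The share was lower in the cells with Ptgs2 in each of the 3 libraries, but the intervals overlapped in each (9.10% to 20.3% against 18.9% to 21.1% with microneedle). For Ltc4s the share was higher in the cells with it in each library: 65.1% against 62.0% untreated and 9.92% against 8.29% with croton oil. With microneedle it was 20.9% (19.6% to 22.3%) against 17.2% (15.4% to 19.2%), where the intervals did not overlap. Alox5ap and Alox5 went the same way in each library with overlapping intervals, at 20.2% against 17.4% and 20.4% against 19.0% with microneedle. For Ptger4 the direction differed between libraries. Cells of a library are not replicates of a treatment.

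The Langerhans cells of the 3 libraries lay mostly in different clusters, so that cluster and library are hard to separate: cluster 0 held 7442 untreated, 3 croton oil and 487 microneedle gated cells, cluster 2 held 4708 of the croton oil and cluster 6 held 3816 of the microneedle cells. The 9 genes and the other eicosanoid genes listed were left out of the clustering. Cluster 1, led by the heat shock genes Hsph1, Hspa1a and Hspa1b, held 868 untreated, 752 croton oil and 794 microneedle cells. In it, Hpgd was at 548 CPM untreated, 42.7 with croton oil and 100.2 with microneedle, so the order of the libraries was that of the whole gate. In cluster 0 the microneedle cells had 201 CPM (191 to 211) against 450.0 (446 to 454) in the untreated cells. Cluster 3, led by the cycling genes Pclaf, Cenpf and Top2a, had 347 CPM in its 189 untreated cells. Cluster 2 had 44.7 CPM in the croton oil and 37.1 (28.8 to 47.0) in the microneedle cells, and these intervals overlapped.

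Ptgs1 (ENSMUSG00000047250, chr2:36120438-36142287, plus strand) encodes cyclooxygenase-1, the constitutive form of the enzyme. Its level in Langerhans cells was 307 CPM untreated, 287 with croton oil and 393 with microneedle punches. The microneedle library was the highest, by a log2 difference of 0.35 from untreated, and croton oil lay below untreated by less, at -0.09. It made up most of the summed level of Ptgs1, Ptgs2 and Ptges in each library.

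Ptgs2 (ENSMUSG00000032487) encodes cyclooxygenase-2, the form known to be induced in inflammation. In Langerhans cells it was at 2.05 CPM untreated (1.79 to 2.34), 22.7 with croton oil (21.7 to 23.7) and 18.7 with microneedle (17.9 to 19.6). Both treated libraries were above the untreated one, and croton oil was above microneedle by a log2 difference of 0.22. Croton oil was 11.1-fold above untreated, a log2 difference of 1.97 (1.86 to 2.08). Microneedle was 9.14-fold above, 1.75 (1.64 to 1.86), but stayed just under 20 CPM and so was not among the genes compared. Few cells carried the transcript: after thinning to 3000 UMIs, 0.526% of untreated, 4.33% of croton oil and 3.13% of microneedle Langerhans cells had a Ptgs2 UMI. Without thinning the shares were 1.20%, 9.39% and 8.27%. In thinned keratinocyte-like cells of the same libraries the shares were 0.481%, 3.57% and 2.53%, from cells with a median of 27947, 54562 and 34373 UMIs before thinning. The class held only 240, 219 and 97 cells before thinning, so these shares rest on very few cells with a UMI. The part of free RNA in the Ptgs2 shares of both classes was not tested.

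Neutrophil-like cells were present in the treated libraries and expressed Ptgs2 at 44.1 CPM with croton oil and 536 with microneedle. Their transcript S100a8 was at 0.0742, 18.3 and 9.13 CPM in the untreated, croton oil and microneedle Langerhans cells, against 32317 and 27618 in the neutrophil-like cells of the treated libraries. In Langerhans cells with no UMI of S100a8 or S100a9, the log2 difference of Ptgs2 from untreated was 1.90 with croton oil and 1.77 with microneedle. Of the 10 neutrophil markers listed, 2 untreated, 3 croton oil and 2 microneedle lay at 20 CPM or more in Langerhans cells, with a summed level of 2648, 2714 and 4062 CPM that came almost wholly from Il1r2. Of the same 10 markers, Retnlg, Ly6g and Acod1 were at 0 in the untreated Langerhans cells, and no marker was at 0 in the treated ones. Mmp9 and Cxcr2 went the other way and were highest in the untreated Langerhans cells. Mmp9 was at 151, 23.7 and 70.7 CPM in the untreated, croton oil and microneedle libraries, and Cxcr2 at 9.03, 1.24 and 1.01 CPM. Ptgs2os lies over Ptgs2 on the other strand and is counted as a gene of its own. Whether counting used the strand is not given in the sources used here, so reads of this pair cannot be told apart with certainty.

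Among clusters of Langerhans cells, Ptgs2 was 1.07 CPM untreated, 4.11 croton oil and 11.7 microneedle in the heat shock-led cluster 1. In cluster 0 it was at 2.07 CPM in untreated and 2.06 in microneedle cells, so the microneedle cells of that cluster showed no excess. It was at 26.3 CPM in the croton oil and 51.8 (41.9 to 63.4) in the 116 microneedle cells of cluster 2. In clusters 1 and 2 the microneedle cells had the higher level, the reverse of the order over the whole gate. In cluster 6 it was at 21.0 CPM in the microneedle cells and 18.2 (12.2 to 26.2) in the croton oil cells, with overlapping intervals. Within the microneedle library the Ptgs2 level thus ranged from 2.06 to 51.8 CPM over clusters 0, 1, 2 and 6, and the Hpgd level from 201 down to 37.1. The 184 microneedle cells of cluster 7, described below, had the lowest Hpgd level, 3.15 CPM, with Ptgs2 at 12.9 CPM, inside that range.

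Ptges (ENSMUSG00000050737, chr2:30779483-30820196, minus strand) encodes the inducible microsomal prostaglandin E synthase. It was near the bottom of the range in Langerhans cells, at 0.529, 1.28 and 0.942 CPM in the untreated, croton oil and microneedle libraries, from 57, 104 and 91 UMIs. It stayed under 20 CPM in each library and was not compared.

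Ptger4 (ENSMUSG00000039942, chr15:5236142-5273673, minus strand) encodes EP4, a receptor for prostaglandin E. In gated Langerhans cells it was at 96.2 CPM untreated, 42.7 with croton oil and 44.8 with microneedle, and the intervals of the treated libraries overlapped. The log2 difference from untreated was -1.09 with croton oil and -1.02 with microneedle. This result depended on which cells were counted and on scaling. Over all clusters named Langerhans cell-like in place of the gate, it was -0.34 with croton oil and -0.87 with microneedle, which no longer passed the 2-fold mark. With the gate and median-of-ratios scaling it was -0.96 with croton oil, just short of the mark, and -1.03 with microneedle. Ttc33, on the other strand, overlaps Ptger4 in the annotation.

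The cells behind the dependence on the gate were cluster 7, led by Fscn1, Ccr7 and Ccl22, genes known from migrating dendritic cells. It held 29 untreated, 946 croton oil and 184 microneedle cells, of which 22, 253 and 29 met the gate. In the croton oil library Ptger4 was at 303 CPM in this cluster and at 34.8 in the remaining gated Langerhans cells, a log2 difference of 2.95. In the microneedle library the levels were 264 and 43.5 CPM, a log2 difference of 2.47. Of the other members, 5 were lower past the 2-fold mark in the cluster. With croton oil, Ptgs1 was at 10.7 CPM in the cluster and 299.6 outside it, and Alox5ap at 19.8 and 523. Alox5 was at 80.9 and 343, Ltc4s at 177 and 712, and Hpgd at 3.51 and 44.3. Ptgs2 was also lower there, at 9.14 and 23.1 CPM, a log2 difference of -0.99, just short of the mark. Lta4h, under 20 CPM and not compared, was at 7.39 and 13.3. Ptges, under 20 CPM and not compared, was at 2.05 CPM in the cluster and 1.25 outside it. In the croton oil library 6 of 7 members compared passed the 2-fold mark between these groups, against 19.2% of 6733 genes, and in the microneedle library 6 of 6, against 23.4% of 6985 genes. In both libraries Ptger4 was the 1 member past the mark that was higher in cluster 7.

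**Figure D3:**
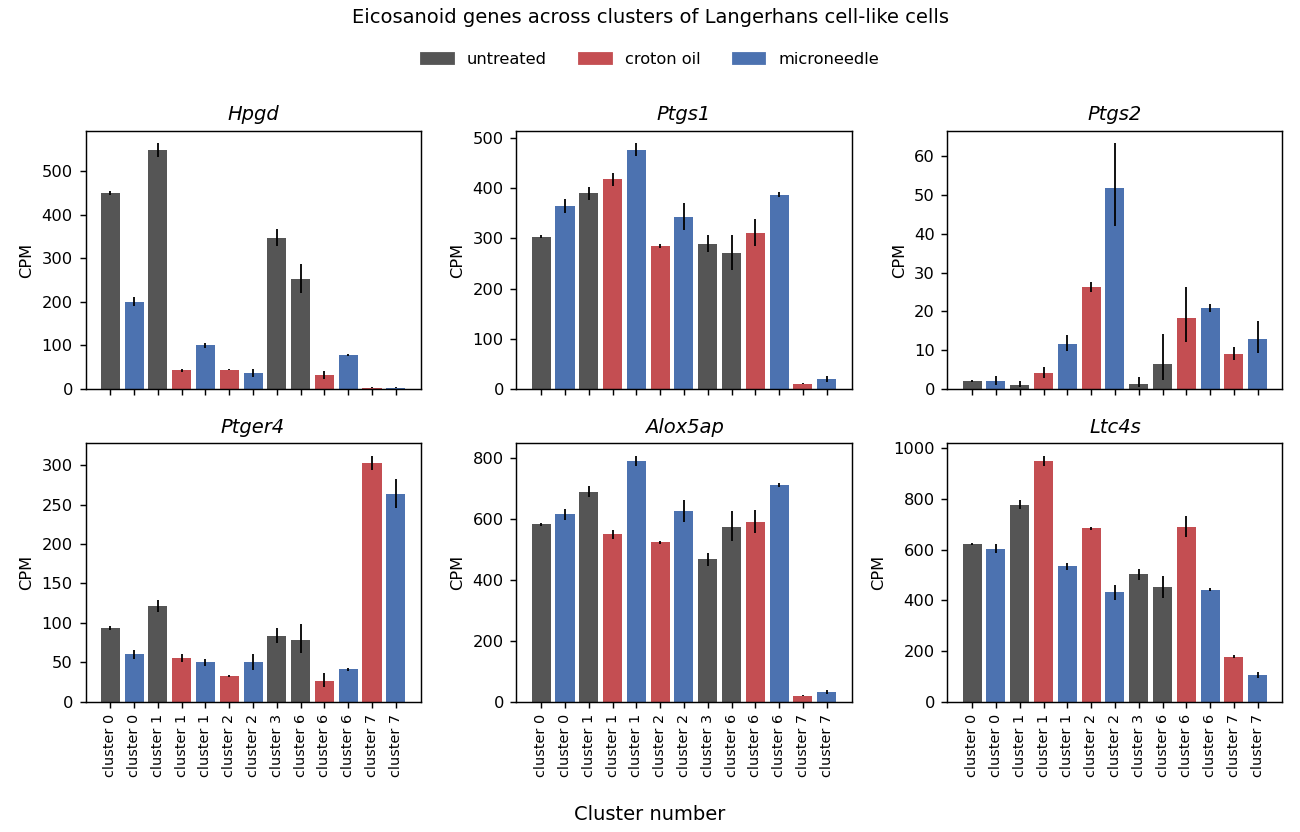
Level of 6 genes (CPM, linear axes from 0) in the clusters of Langerhans cell-like cells, 1 bar per cluster and library with at least 50 cells, with bars for the 95% Poisson interval; clusters 0 to 6 hold gated cells and cluster 7 all of its cells. Hpgd was highest in the untreated bars, and in cluster 7 Ptger4 was the highest of any bar while Ptgs1, Alox5ap and Ltc4s were the lowest.

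The leukotriene genes other than Lta4h were abundant in Langerhans cells and differed by less than 2-fold between libraries. Alox5 (ENSMUSG00000025701, chr6:116387032-116438139, minus strand) encodes 5-lipoxygenase, the first enzyme of the pathway, and was at 363 CPM untreated, 338 with croton oil and 364 with microneedle. Its log2 difference from untreated was -0.10 and 0.00, the latter with an interval that included 0 (-0.03 to 0.03). Alox5ap (ENSMUSG00000060063, chr5:149196003-149227762, plus strand) encodes the activating protein that presents arachidonic acid to 5-lipoxygenase, and was at 581, 502 and 705 CPM, log2 differences of -0.21 and 0.28. Ltc4s (ENSMUSG00000020377, chr11:50127288-50129443, minus strand) encodes leukotriene C4 synthase, which makes the cysteinyl leukotrienes, and was at 625, 695 and 463 CPM, log2 differences of 0.15 and -0.43. The croton oil library was thus the lowest of the 3 for Alox5ap and the highest for Ltc4s, and the microneedle library the reverse. Lta4h (ENSMUSG00000015889, chr10:93289210-93320749, plus strand) encodes the hydrolase that makes leukotriene B4, and was at 19.2, 13.2 and 14.3 CPM, under the minimum for a comparison. On the other strand, Gm26542 overlaps Ltc4s and Gm19719 overlaps Alox5ap among the counted features.

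The direction of the small differences depended on scaling. Median-of-ratios scaling moved the median log2 difference of all genes between croton oil and untreated from -0.03 to 0.11, and under it Ptgs1 stood at 0.04 and Alox5 at 0.03, each with its sign turned. The share of higher genes among all genes past the fold moved with it, from 49.9% to 65.6% between croton oil and untreated and from 61.0% to 76.0% between croton oil and microneedle. Hpgd kept a log2 difference between -3.40 and -3.12 with croton oil and between -2.37 and -2.18 with microneedle over the alternatives run.

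The ratio of Hpgd to Ptgs1, Ptgs2 and Ptges in Langerhans cells was lower in both treated libraries than in the untreated one. Other synthases, such as Hpgds, are not in this sum. Hpgd had 1.44 UMIs for each UMI of Ptgs1, Ptgs2 and Ptges together in the untreated library (1.42 to 1.46), 0.137 with croton oil (0.132 to 0.142) and 0.218 with microneedle (0.213 to 0.223). The ratio was 10.6-fold lower with croton oil and 6.62-fold lower with microneedle, log2 differences of -3.40 and -2.73. The summed synthesis level itself was 309.6, 311 and 412 CPM, so in the croton oil library nearly the whole difference in the ratio lay in Hpgd. Against Alox5, Alox5ap, Ltc4s and Lta4h together, Hpgd had 0.282, 0.0275 and 0.0581 UMIs per UMI, log2 differences of -3.36 and -2.28. The summed level of these 4 genes was 1588, 1548 and 1547 CPM. Because genes may be captured with unlike efficiency, the ratios are read between libraries and not as amounts of enzyme.

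**Figure D4:**
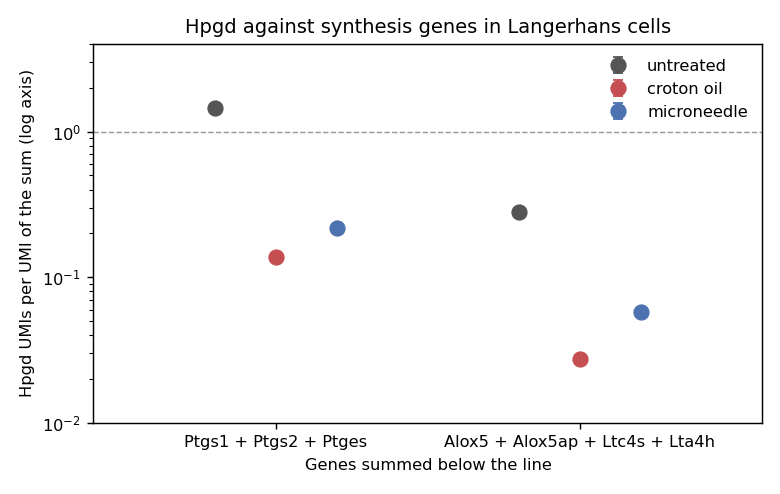
Hpgd UMIs per UMI of the summed prostaglandin synthesis genes (left) and leukotriene genes (right) in gated Langerhans cells of the 3 libraries (log axis); the intervals are smaller than the points and the dashed line marks a ratio of 1. The untreated point lies above 1 on the left, at 1.44, and every other point lies below it.

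Across cell classes the genes fell into distinct patterns. Hpgd was highest in untreated Langerhans cells (447 CPM), followed by untreated keratinocyte-like cells (100.4; 92.6 to 109) and microneedle Langerhans cells (89.9; 88.0 to 91.8), then by microneedle keratinocyte-like cells (58.7), croton oil Langerhans cells (42.6; 41.2 to 44.0) and croton oil keratinocyte-like cells (38.0; 34.5 to 41.9). Of these neighbours, the croton oil Langerhans and keratinocyte-like cells had intervals that overlapped slightly, and the untreated keratinocyte-like and microneedle Langerhans cells had intervals that came close without overlapping. Hpgd was at 4.67 CPM in macrophage-like cells and at 0 UMIs in both sets of neutrophil-like cells, which allows up to 4.005 CPM with croton oil and 1.85 CPM with microneedle.

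Neutrophil-like cells carried the genes that lead to leukotriene B4. Alox5ap was at 2544 CPM in croton oil and 943 in microneedle neutrophil-like cells, 5.07-fold and 1.34-fold above Langerhans cells of the same library. Lta4h was at 64.1 and 41.9 CPM, 4.86-fold and 2.94-fold above Langerhans cells, while Alox5 was lower than in Langerhans cells, at 123 and 75.9 CPM. Ltc4s was at 22.7 and 16.0 CPM, 30.6-fold and 28.9-fold below Langerhans cells. The cells of the treatments differed most in Ptgs2, which was at 44.1 CPM (30.3 to 61.9) with croton oil and 536 (501 to 573) with microneedle, a 12.2-fold difference. In thinned cells, 5.50% of 109 croton oil and 49.6% of 248 microneedle neutrophil-like cells had a Ptgs2 UMI, against 4.33% and 3.13% of Langerhans cells. Between the sets of neutrophil-like cells, 2 of 7 members compared passed the 2-fold mark, Ptgs2 lower and Alox5ap higher with croton oil, against 23.5% of 5343 genes. Against Langerhans cells of the same library, 7 of 8 members passed in the croton oil library, where 61.9% of 7275 genes did, and 6 of 8 in the microneedle library, where 67.4% of 7329 did. Cd207 in neutrophil-like cells was at 2.45% and 4.77% of its Langerhans cell level, Cd74 at 1.12% and 3.28%, and Ltc4s at 3.27% and 3.46%. Ltc4s thus stood above both markers with croton oil and between them with microneedle.

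Macrophage-like cells of the microneedle library had Alox5ap at 549.7 CPM, against 705 in Langerhans cells. Alox5 was at 15.1 and Ltc4s at 10.1 CPM, against 364 and 463 in Langerhans cells. Lta4h was at 22.6 CPM, above the 14.3 of Langerhans cells by less than 2-fold. Ptgs2 was at 190 CPM (174 to 206), 10.1-fold above Langerhans cells of that library, and Ptges at 42.4 CPM (35.1 to 50.7), 45.0-fold above. The Ptges ratio rests on only 0.942 CPM in Langerhans cells, and its log2 difference was 2.99. Against Langerhans cells 6 of 9 members passed the 2-fold mark, where 36.3% of 7383 genes did: Ptgs2 and Ptges were higher and Hpgd, Ptgs1, Ltc4s and Alox5 were lower. For each UMI of Ptgs1, Ptgs2 and Ptges together these cells had 0.0195 Hpgd UMIs (0.0103 to 0.0335), below the 0.218 of Langerhans cells in the same library.

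Keratinocyte-like cells carried Ptges and Ptgs1. Ptges was at 61.3 CPM untreated, 132 with croton oil and 93.7 with microneedle, in each library the highest level of any class compared. Its log2 differences from Langerhans cells of the same library were 3.58, 4.45 and 4.05. The plain ratios, 116-fold, 103-fold and 99.5-fold, rest on Langerhans cell levels of only 0.529, 1.28 and 0.942 CPM. The part of free RNA in those low levels was not tested. Ptgs1 was at 370.2, 135 and 181 CPM, above Langerhans cells in the untreated library and below them in the treated ones. Ptgs2 was low, at 3.63, 14.3 and 13.3 CPM. Against Langerhans cells of the same library, 6 of 8 members compared passed the 2-fold mark in the untreated, 5 of 9 in the croton oil and 5 of 8 in the microneedle library, where 39%, 42.7% and 38.6% of all genes did. With croton oil 4 of 8 members compared passed the 2-fold mark against untreated, Ptges higher and Hpgd, Ptgs1 and Alox5 lower, where 27.2% of 7619 genes passed. With microneedle 1 of 8 passed, Ptgs1, lower, where 13.2% of 7592 genes did. Between the treatments 0 of 8 passed, where 7.55% of 7407 genes did. The make-up of the keratinocyte-like cells differed between libraries: Krt10, a keratin of differentiating layers, was at 14747 CPM untreated, 596 with croton oil and 4079.8 with microneedle, and the basal keratin Krt14 at 4747, 17479 and 15386 CPM. Langerhans cell RNA in these cells differed as well, with Cd207 at 15.1% of its Langerhans cell level untreated and 6.32% with croton oil. The parts of this make-up and of Langerhans cell RNA in the differences above were not tested.

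Langerhans cell transcripts were also found in keratinocyte-like cells. Cd207 was there at 15.1%, 6.32% and 18.5% of its Langerhans cell level in the untreated, croton oil and microneedle libraries, and Cd74 at 15.1%, 7.84% and 13.1%. Ltc4s stood at 16.2%, 8.58% and 16.5%, Alox5ap at 16.3%, 10.9% and 13.9%, and Alox5 at 19.5%, 8.50% and 12.8%, so these genes lay close to the markers. Hpgd stood at 22.5%, 89.4% and 65.4%, and Ptgs1 at 121%, 46.9% and 46.1%, above the markers in each library. The part of Langerhans cell RNA in the keratinocyte-like levels, those of Hpgd and Alox5 among them, was not tested. In the opposite direction, Krt14 in Langerhans cells was at 72.3, 85.2 and 17.9 CPM, and the 12 keratinocyte markers listed summed to 295, 359 and 89.1 CPM there, with 5, 5 and 0 of them at 20 CPM or more.

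**Figure D5:**
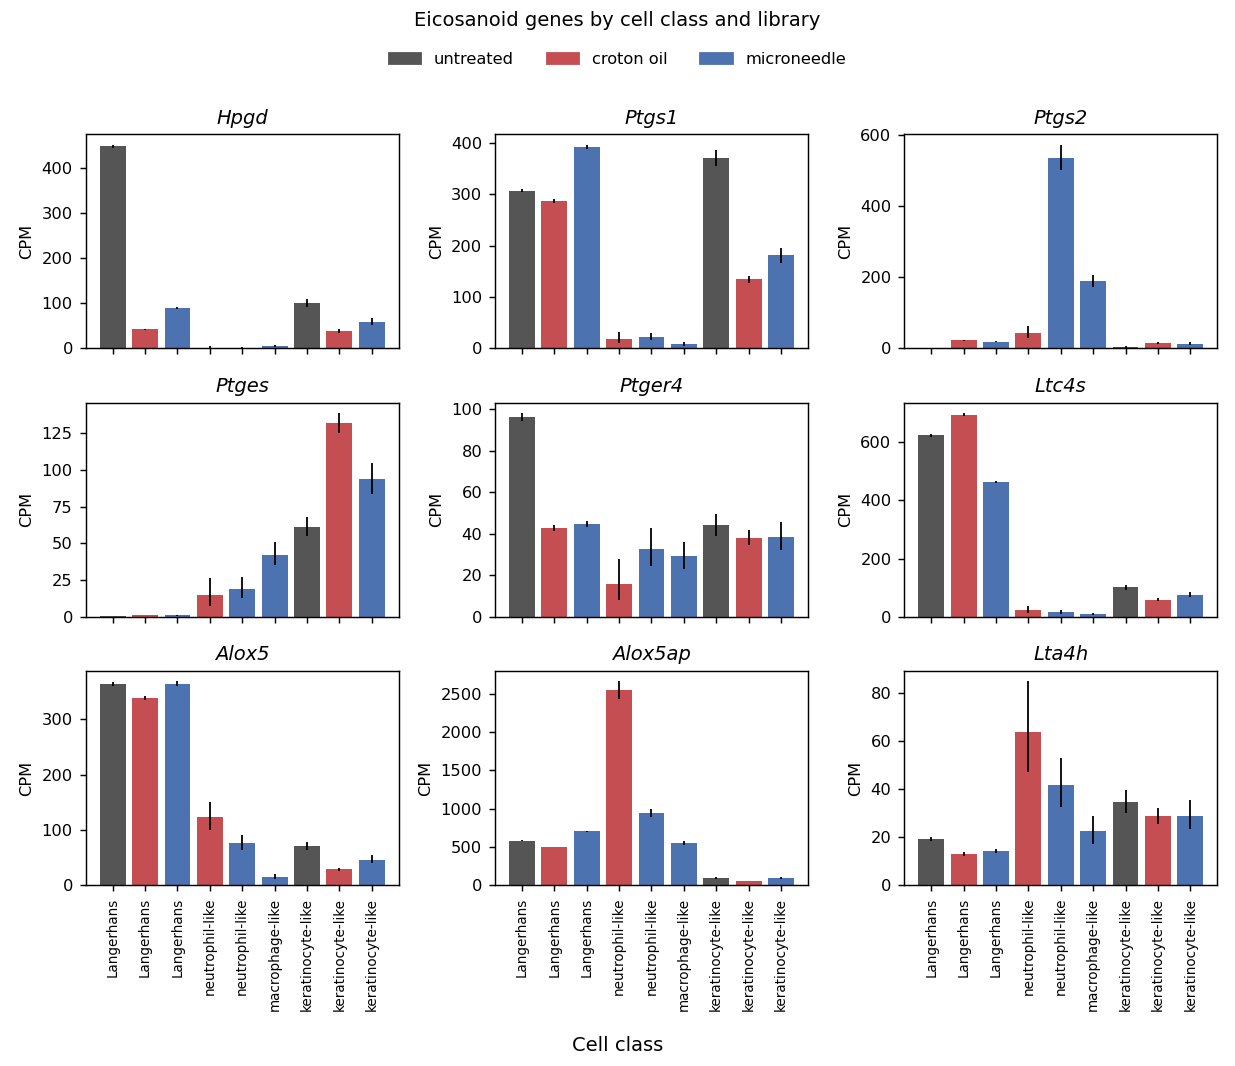
Level of each gene (CPM, linear axes from 0) by cell class and library for the 9 combinations with at least 50 cells, with bars for the 95% Poisson interval. Hpgd peaks in untreated Langerhans cells, Ptgs2 in microneedle neutrophil-like cells, Ptges in keratinocyte-like cells and Alox5ap in croton oil neutrophil-like cells.

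Other genes of the pathway were read from 6 lists of 72 genes, of which 71 were among the counted features. In Langerhans cells 21 of them could be compared. With croton oil 2 were higher and 4 lower past the fold, beside the 5.5% and 5.53% of all genes given above, and with microneedle 2 were higher and 1 lower, beside 3.88% and 1.76%. Their median log2 difference was 0.05 with croton oil and -0.10 with microneedle, against -0.03 and 0.03 over all genes. Of the genes that release or supply arachidonic acid, the secreted phospholipase Pla2g5 was at 10.9 CPM untreated, 29.2 with croton oil and 45.7 with microneedle, and was higher past the fold in both treatments. Acsl4, which loads arachidonic acid onto coenzyme A, was at 64.6, 119.8 and 144 CPM and passed as higher with microneedle. Mgll, the lipase that breaks down monoacylglycerols, was at 86.1, 24.4 and 31.2 CPM and was lower in both. Elovl5, an elongase of polyunsaturated fatty acids, was at 1164, 417 and 1281 CPM, and passed as lower with croton oil, as did its difference between croton oil and microneedle. The cytosolic phospholipase Pla2g4a was at 140.1, 221 and 196 CPM and did not pass.

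Among the other groups, Hpgds, the haematopoietic prostaglandin D synthase, was the most abundant terminal synthase, at 1205, 799 and 906 CPM, and did not pass. Cytosolic Ptges3 was at 224, 189 and 189 CPM. Of the transporters, Abcc1, which exports leukotriene C4, was at 177, 70.7 and 107 CPM and passed as lower with croton oil, and Abcc4, which exports prostaglandins, was at 579, 599.7 and 846 CPM. Ptger3, another prostaglandin E receptor, was at 67.3, 29.3 and 50.6 CPM and passed as lower with croton oil. Cotl1, a 5-lipoxygenase binding protein that also binds actin, was at 26.2, 103 and 44.4 CPM and was higher with croton oil. Dpep2, a dipeptidase acting on leukotriene D4, was at 141, 100.1 and 100.2 CPM and did not pass.

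The classes differed in their other eicosanoid genes as well. In neutrophil-like cells of the croton oil and microneedle libraries, Cyp4f18, which inactivates leukotriene B4, was at 546 and 707 CPM against 0.270 and 0.404 in Langerhans cells. The leukotriene B4 receptor Ltb4r1 was at 180.2 and 71.6 CPM there, and at 64.6 CPM in croton oil keratinocyte-like cells. Pla2g7, the lipase that breaks down platelet-activating factor, was at 1426 and 520.0 CPM in neutrophil-like and 521 in macrophage-like cells. The prostaglandin E receptor Ptger2 was at 75.3 CPM in microneedle neutrophil-like cells. In keratinocyte-like cells, the epidermal phospholipase Pla2g2f was at 276, 25.8 and 47.2 CPM, the lipoxygenase Alox12b at 89.5, 0.646 and 12.2 CPM and the prostaglandin transporter Slco2a1 at 21.4, 29.6 and 78.0 CPM, in the untreated, croton oil and microneedle libraries.

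The genes whose pattern was most like a member's were found by Pearson's r of log2(CPM + 5) over the 9 class and library combinations, among 10029 genes. These combinations share 3 libraries and free RNA, and genes are many, so the values are descriptions. Hpgd was most like Zfp612 (r = 0.98), Immp2l (0.97) and Lrba (0.97). In Langerhans cells Lrba was at 708 CPM untreated, 190.3 with croton oil and 401 with microneedle. Ptgs1 was most like Adgrg1 (0.98), Efna1 (0.98) and Plekha5 (0.97), and Ptgs2 most like Il1a (0.97), Ubap1 (0.95) and Nfkbiz (0.94). Il1a, which encodes the cytokine interleukin-1 alpha, was at 0.436, 3.99 and 4.11 CPM in the Langerhans cells and at 133 CPM in microneedle neutrophil-like cells. Alox5ap was most like Fes (1.00), Nfam1 (0.99) and Tspoap1 (0.99).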

How the data were processed

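The deposited values were whole-number UMI counts per gene and barcode, not normalized, which per the file headers the authors made with Cell Ranger 8.0.0. The genome build was GRCm39, per the submitters' processing notes. The annotation, intron counting and use of strand are not given in the sources used here. Of the 34289 features, 33767 identifiers, with all 9 members among them, are in GENCODE M39, from which gene positions were taken.

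Cells with at least 500 genes and at most 10% mitochondrial UMIs were kept. Scrublet's own threshold (scanpy 1.11.5) marked 1, 0 and 0 cells in the untreated, croton oil and microneedle libraries, so the highest scores were removed at 0.8% per 1000 cells (773, 532 and 376 cells). The 3 libraries were clustered jointly, with no correction between libraries (2000 variable genes, 30 components, 15 neighbours, Leiden resolution 0.5, igraph 0.11.9), the members and listed pathway genes left out. A cluster was named when at least 3 markers and a share of 0.5 of a list were present, at 20 CPM and 0.2 of their highest level in any cluster. The naming rule came after a look at the clusters. The rule left 2 clusters unnamed, led by T cell and by melanocyte genes.

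UMIs were summed per class and library, with exact Poisson intervals for levels and Clopper-Pearson intervals for shares, at 95%, for counting error only. A count of 0 was given a limit of 3 UMIs or cells. Differences were taken on log2(CPM + 5). The fold rule was checked on simulated data that held counting error only. That check cannot show how often libraries of the same group would differ past the fold. The 9 members were named in full, and pathway genes by a rule of fold and level; the members, lists and rules were chosen with earlier results of these data known. Alternative gates, cell filters, scalings (edgeR 4.0.16 TMM among them), pseudocounts, minimum levels, thinning depths and clusterings were run, 19 of them on the counts of members.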

Additional observations from a re-analysis of the deposited data

Results flagged for a closer look

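Of the 9 genes, 3 had log2 differences from untreated of opposite sign in the 2 treatments in gated Langerhans cells, with counting intervals that excluded 0 on both sides. Ptgs1, cyclooxygenase-1, stood at -0.094 with croton oil and 0.35 with microneedle punches. Ltc4s, leukotriene C4 synthase, stood at 0.15 and -0.43. Alox5ap, the activating protein of 5-lipoxygenase, stood at -0.21 and 0.28. Each is smaller than 2-fold, each rests on 1 library per group that shares the untreated library, and the difference between the treatments was not tested. Under median-of-ratios scaling the croton oil value of Ptgs1 was 0.04 and that of Alox5ap -0.07, so the opposite signs of Ptgs1 were not kept. With Langerhans cell-like clusters in place of the gate the croton oil value of Ltc4s was 0.0016, near 0.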

How the results depend on the processing

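No result changed its direction past the 2-fold mark under an alternative. Between croton oil and microneedle the count of members past the mark was 0, and it became 1 (Hpgd, lower) with class II at 1% of UMIs, with 1 Epcam UMI, with Langerhans cell-like clusters in place of the gate, with cells thinned to 3000 UMIs, with no S100a8 or S100a9 UMI, with the mean of per-cell CPM and with a pseudocount of 1 CPM. Between microneedle and untreated it was 2, and it became 1 with the clusters in place of the gate and with the mean of per-cell CPM. With no minimum level Ptgs2, at 18.7 CPM with microneedle and a log2 difference of 1.75, passes the mark as well. Between croton oil and untreated it was 2 or 3 throughout. The change in the ratio of Hpgd to prostaglandin synthesis genes moved by more than its counting interval with class II at 4% of UMIs, to -3.49 with croton oil and -2.85 with microneedle, with no S100a8 or S100a9 UMI, to -3.49 with croton oil, and with no Krt14 or Krt5 UMI, to -2.78 with microneedle. The Ptger4 difference of croton oil from untreated ran from -1.33 to -0.34 and that of Ptgs2 from 1.65 to 2.96. Of 918 alternative values, 630 stayed within counting error and 288 moved beyond it; the cause was not tested. The gate restricted to Langerhans cell-like clusters was chosen after seeing the data. No paired analysis was possible because each group has 1 library and the labels give no shared replicate numbers, and no replicate could be left out for the same reason. Depth limits Ptges in Langerhans cells, read from 57 to 104 UMIs, and shares in the 109 thinned croton oil neutrophil-like cells.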
